A study of Mus musculus with 4 samples.

Results

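The genes described here were those whose products build or serve the axoneme of the motile cilium, and they were chosen by symbol alone. Every gene of the deposited matrices whose symbol begins with Cfap, Dnah, Dnai, Rsph, Drc, Tekt or Ift was taken, which gave 82 genes of 32285. By name, 33 were cilia and flagella associated proteins (Cfap), 10 were heavy chains placed with the inner dynein arms, 7 were placed with the outer dynein arms, 8 were radial spoke proteins, 3 were subunits of the nexin-dynein regulatory complex, 5 were tektins and 15 belonged to intraflagellar transport. The last gene, *Dnah2os*, is an antisense RNA, as is *Ift88os* within the transport group. The 67 genes outside the transport group are called structural below for short. That set was drawn by symbol and not by function, and it holds *Dnah2os*. All 82 had at least 1 UMI (a count of 1 captured mRNA molecule) in the cells kept, and 4 had under 100 UMIs in all (*Cfap97d1*, *Ift88os*, *Rsph6a* and *Dnah2os*).

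A motile cilium is a whip-like extension of the cell built around a ring of doublet microtubules and a central pair. Outer and inner dynein arms on the doublets are the motors that bend it, the nexin-dynein regulatory complex links neighbouring doublets, radial spokes pass signals from the central pair to the arms, and tektins lie inside the doublets. Intraflagellar transport carries building blocks along the shaft of motile cilia and also of the immotile primary cilium, which most cells of the brain bear. Ependymal cells line the ventricles, carry tufts of motile cilia that move cerebrospinal fluid, and in the mouse mature during the first weeks after birth from radial glia of the ventricular wall.

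The cells were tdTomato-positive cells sorted from the forebrain of C57BL/6 mice at postnatal day 5, after tamoxifen had been given to the pregnant mothers in mid-gestation. The labels call the cells neuronal, but excitatory and inhibitory neurons made up 7.10% and 16.5% of the cells kept, and the ependymal class 5.03%. The control libraries (NestinCreERT2/tdTomato/Chd8+/+) and the mutant libraries (NestinCreERT2/tdTomato/Chd8+/F) both carried the inducible Cre under the Nestin promoter and the reporter, and the mutants could lose 1 copy of *Chd8*, a chromatin remodeller, in cells in which Cre had acted. There were 2 libraries of each genotype, each from cells of several pooled mice, so the library is the replicate and the spread between mice was not measured. The libraries held 46274374 to 79328841 UMIs, and 17623 of 27742 barcodes passed the filters, with medians of 11497 to 11837.5 UMIs per cell. The deleted part of *Chd8* is not resolved by a 3′ tag, and *Chd8* was at 61.7 and 89.8 CPM (UMIs per 1000000 UMIs of the group) in the 2 control libraries and 68.7 and 94.9 CPM in the 2 mutant libraries, so its level did not check the labels. In all, 39 barcodes occurred in 2 libraries.

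Cells were grouped by clustering without the 82 genes and without the other cilium genes on the lists described below. Genes on no such list stayed in, whether or not they serve cilia. Clusters were then named from markers that included *Foxj1* and *Dynlrb2*. The ependymal class held 886 cells (254, 187, 252 and 193 in control replicates 1 and 2 and mutant replicates 1 and 2, the order used for all sets of 4 values below) in 2 clusters. In both clusters all 10 ependymal markers were detected, and their summed level was 6113 to 11860 CPM against 40.6 to 117 CPM in the rest of the cells. The larger cluster, led by *Sntn*, *Tmem212* and *Ccdc153*, is called the *Sntn* cluster (705 cells), and the smaller, led by *Cdc20b*, *Deup1*, *Mcidas* and *Ccno*, is called the *Deup1* cluster (181 cells). A cluster led by *Hgf*, *Lhcgr* and *Veph1* (998 cells) passed the rule for stem-like cells, but its astrocyte and ependymal marker scores were higher than its stem-like one, so it is called the *Veph1* cluster. A second stem-like cluster, led by *Dll1* and *Egfr*, is called the *Egfr* cluster (533 cells). "The rest" stands for 14825 cells, those outside the ependymal class, both stem-like clusters, the choroid plexus-like cells and the unnamed clusters. Its make-up differed by replicate number, with 1274, 281, 1082 and 267 inhibitory neurons and 35, 194, 82 and 259 pericyte or mural cells. Ratios to the rest thus have a different background in each replicate. Some clusters also split by replicate number, such as an astrocyte cluster with 924, 10, 903 and 3 cells.

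Of the barcodes, 20.7% and 20.9% were removed by the filters in the replicate 1 libraries and 51.3% and 54.9% in the replicate 2 libraries. Doublets were not removed in the values given here. Scrublet marked 2.50% and 2.60% of the cells of the replicate 1 libraries, but only 0.471% and 0.0914% in replicate 2, too few to show that the caller worked there.

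Promoters were looked at because the 82 genes shared a pattern across classes, described in the next paragraphs. RefSeq promoters (GRCm38.p6, 250 bases before to 50 bases after each transcription start) were found for 66 of the 82 genes. The 16 without one include *Rsph1*, *Cfap299* and *Cfap54*, which are described later. Factors of the RFX family and the forkhead factor *Foxj1* are known regulators of cilium genes. The letters GTTGCCA, an RFX half-site, stood on either strand in promoters of 14 of the 66 genes (21.2%), against 5.02% of 27025 genes with a promoter. These were 2 of 11 transport genes and 12 of 55 other members. The longer RFX palindrome, in which a half-site meets its mirror image and with which the half-site letters can overlap, was present in 1 of the 66 (1.52%, against 0.529% of all genes), and the forkhead letters TGTTTAC in 4 (6.06%, against 4.05%). CCAAT was present in 29 (43.9%, against 41.1%) and TATAAA in 3 (4.55%, against 15.7%). These shares are descriptions of letters in a window and were not tested. The 6 promoters printed below belong to genes described later and show where the letters fall. All 6 hold the half-site, which only 14 of the 66 genes have, so they are not typical of the members. They are read 5′ to 3′ along the gene's strand, and capitals mark the half-site, the palindrome or the forkhead letters on either strand. They lie at chr16:90934800-90935099 on the minus strand (*Cfap298*), chr16:44394549-44394848 on the plus strand (*Cfap44*), chr8:95434820-95435119 on the minus strand (*Cfap20*), chr5:124724835-124725134 on the plus strand (*Dnah10*), chr5:30281143-30281442 on the plus strand (*Drc1*) and chr11:72361833-72362132 on the minus strand (*Tekt1*).
Cfap298: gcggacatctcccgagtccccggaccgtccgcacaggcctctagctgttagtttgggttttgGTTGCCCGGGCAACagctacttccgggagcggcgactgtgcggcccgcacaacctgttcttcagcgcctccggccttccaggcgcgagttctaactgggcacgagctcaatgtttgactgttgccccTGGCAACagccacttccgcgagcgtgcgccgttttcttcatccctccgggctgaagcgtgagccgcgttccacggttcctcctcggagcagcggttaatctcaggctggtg
Cfap44: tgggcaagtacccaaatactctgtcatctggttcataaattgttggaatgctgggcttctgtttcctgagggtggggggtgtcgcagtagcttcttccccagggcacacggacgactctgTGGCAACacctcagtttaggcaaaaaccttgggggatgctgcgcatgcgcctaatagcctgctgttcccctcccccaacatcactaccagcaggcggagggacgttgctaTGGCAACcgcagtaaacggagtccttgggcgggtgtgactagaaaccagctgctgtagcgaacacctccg
Cfap20: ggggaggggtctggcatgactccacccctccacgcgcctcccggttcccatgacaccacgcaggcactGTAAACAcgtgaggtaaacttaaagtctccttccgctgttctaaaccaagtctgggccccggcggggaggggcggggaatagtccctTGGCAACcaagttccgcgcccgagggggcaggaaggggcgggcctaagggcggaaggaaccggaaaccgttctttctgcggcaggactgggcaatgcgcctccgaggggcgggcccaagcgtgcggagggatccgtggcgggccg
Dnah10: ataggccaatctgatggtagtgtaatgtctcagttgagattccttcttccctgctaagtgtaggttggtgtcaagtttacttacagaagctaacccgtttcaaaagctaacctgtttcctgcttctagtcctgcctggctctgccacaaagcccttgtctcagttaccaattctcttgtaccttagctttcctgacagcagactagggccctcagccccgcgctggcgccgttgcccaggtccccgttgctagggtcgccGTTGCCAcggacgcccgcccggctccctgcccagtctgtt
Drc1: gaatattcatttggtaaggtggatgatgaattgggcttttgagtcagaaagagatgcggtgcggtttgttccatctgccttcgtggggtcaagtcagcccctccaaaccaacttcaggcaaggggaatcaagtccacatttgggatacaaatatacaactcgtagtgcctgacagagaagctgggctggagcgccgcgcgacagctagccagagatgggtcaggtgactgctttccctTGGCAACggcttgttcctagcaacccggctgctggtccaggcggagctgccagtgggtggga
Tekt1: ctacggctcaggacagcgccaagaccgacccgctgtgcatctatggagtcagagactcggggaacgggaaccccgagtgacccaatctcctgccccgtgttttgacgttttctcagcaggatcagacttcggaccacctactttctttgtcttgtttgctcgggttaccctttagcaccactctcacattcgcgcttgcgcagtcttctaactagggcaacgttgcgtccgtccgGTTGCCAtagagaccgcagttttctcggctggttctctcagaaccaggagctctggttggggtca
In *Cfap298* the half-site begins 61 bases before the start and the palindrome 188 bases before it. *Cfap44* holds the half-site 130 and 20 bases before the start, *Cfap20* holds it 95 bases and the forkhead letters 182 bases before the start, *Drc1* holds the half-site 12 bases before and *Tekt1* 15 bases before the start. In *Dnah10* the half-site lies after the start, 10 bases into the transcribed sequence.

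Axoneme genes made up about 2% of the mRNA counted in ependymal cells and about 0.1% or less in nearly all other cells. The 82 genes together took 2.33%, 2.02%, 2.20% and 1.87% of the UMIs of the ependymal class in the 4 libraries (2.10% ± 0.200, SD, n = 4). In the *Veph1* cluster they took 0.205%, 0.339%, 0.228% and 0.260% (0.258% ± 0.0583), and in pericyte or mural cells 0.109% ± 0.00747. The other 10 classes of at least 20 cells per library lay between 0.0414% in microglia and macrophages and 0.0925% in dividing astrocyte-class cells. Every ependymal value was thus above every value of any other class, and every value of the *Veph1* cluster above every value of the classes below it. Microglia lack motile cilia, and transport genes made up 56.3% of their members' UMIs, with *Ift20* at 61.7 CPM, *Cfap20* at 43.7 CPM and *Ift52* at 29.4 CPM. The part that free RNA adds was not measured separately.

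**Figure D1:**
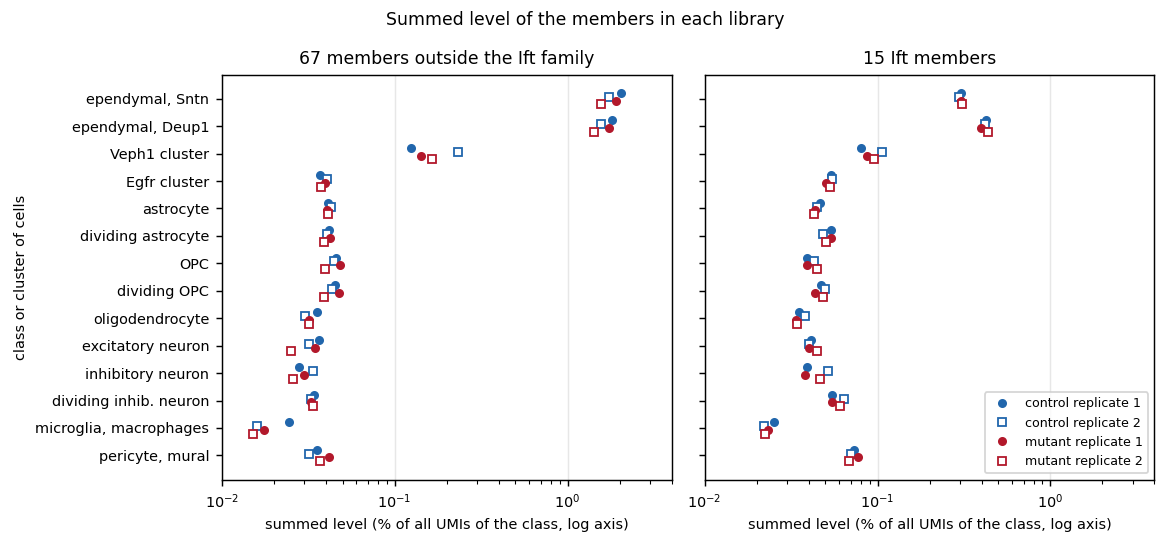
Summed level in percent of the UMIs of each class or cluster (log axis), for the 67 structural genes on the left and the 15 transport genes on the right, with 1 point per library (filled for replicate 1, open for replicate 2, blue for control, red for mutant). The ependymal clusters stand highest in both panels, with 1.77% for the structural genes and 0.330% for the transport genes over both clusters, and the *Veph1* cluster lies between them and the other classes.

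The ependymal class had the highest level of the 13 classes in all 4 libraries for 76 of the 82 genes, against 10.7% of all 26846 genes with a UMI. It was at least 4-fold above the rest in every library for 70 of the 82 (7.04% of all genes) and at least 16-fold above for 51 (3.16%). The clusters were drawn from the same cells, although without these genes, so these counts describe the classes and carry no test. The median log2 ratio of ependymal class to rest was 7.02 over the 77 genes with a value, and -0.17 over all genes. Intraflagellar transport stood apart from the structural genes. Its median log2 ratio was 2.85 (14 genes with a value), against 7.76 for the other 63, and only *Ift88* of the 15 transport genes reached 16-fold in all libraries, against 50 of the 67 others. The difference lay in the rest of the cells more than in the ependymal class. In the rest, the median transport gene was at 28.3 CPM and the median of the other 67 genes at 1.56 CPM, while in the ependymal class the medians were 181 and 210 CPM. These levels are counts of 3′ tags, not divided by gene length.

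**Figure D2:**
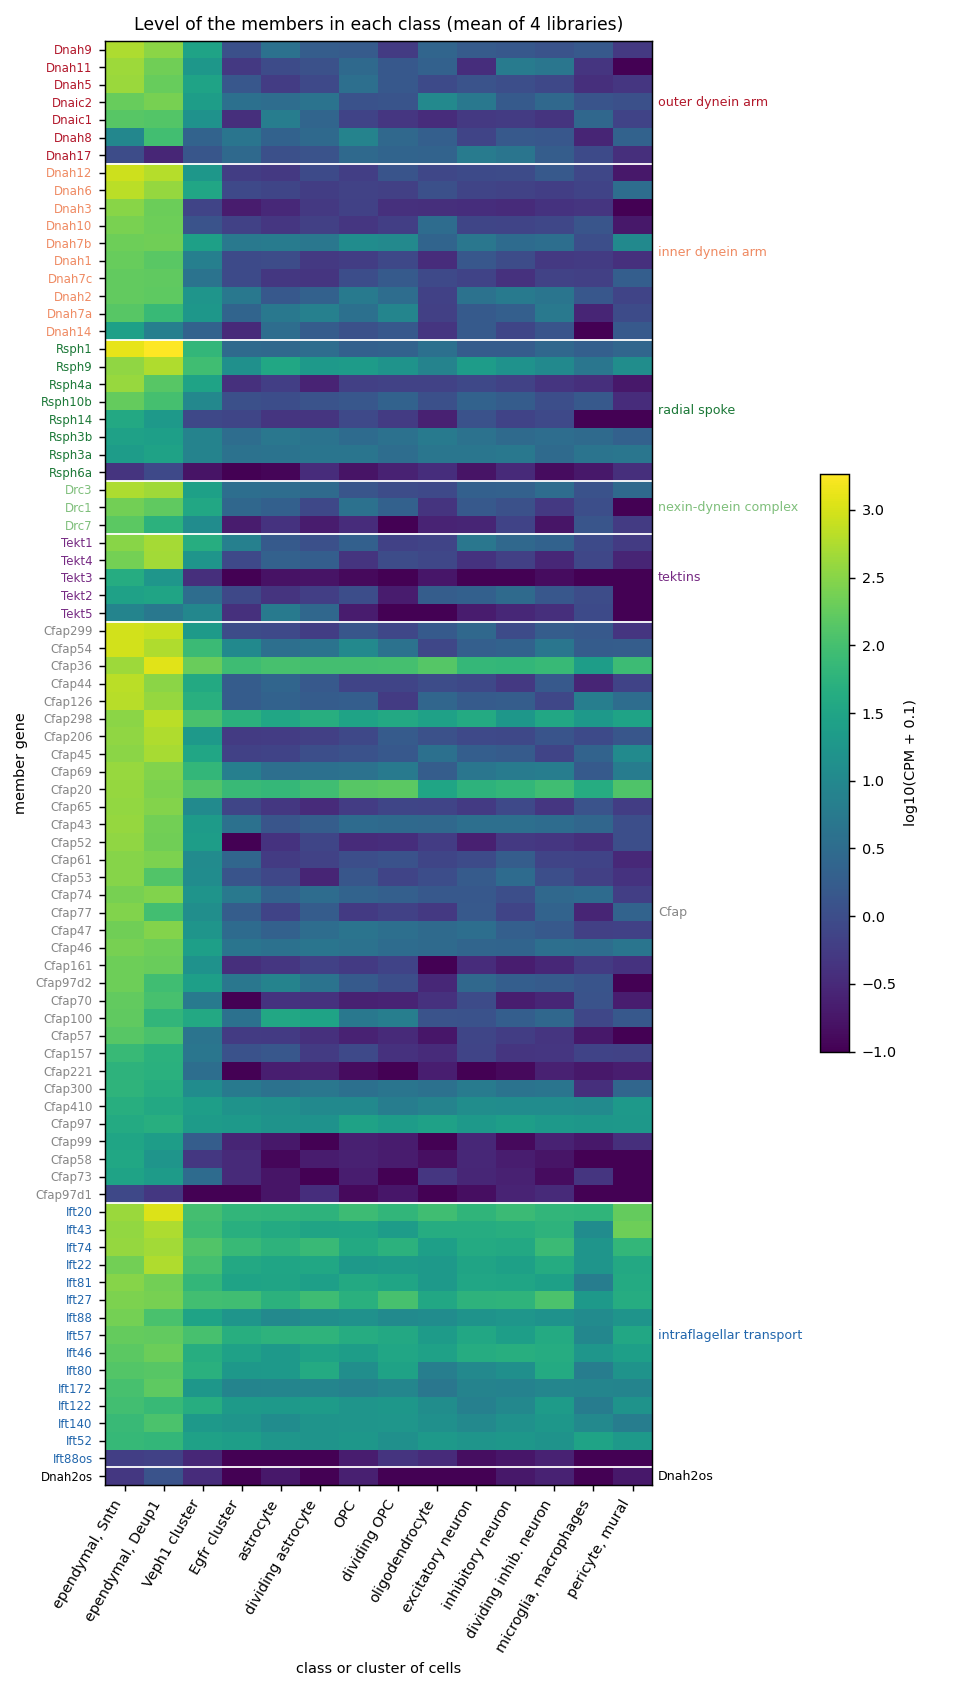
Mean level of each of the 82 genes (rows, grouped and coloured by role) in each class or cluster of cells (columns), as log10(CPM + 0.1) over 4 libraries. The ependymal clusters hold the highest values in nearly every row, and the transport genes near the foot also have counts in the other classes.

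The outer arm heavy chains were among the sharply ependymal genes. *Dnah9* (chr11:65831282-66168551), the heavy chain of the outer part of the cilium, was at 631, 450, 589 and 345 CPM in the ependymal class (504 ± 131) and at 2.17 CPM in the rest. *Dnah11*, its counterpart near the base of the cilium, was at 514, 296, 481 and 227 CPM, against 2.09 CPM in the rest. *Dnah5*, the partner heavy chain along the whole cilium, was at 429, 353, 397 and 277 CPM (364 ± 66.0), which is 358-fold above the rest. All 3 were lower in both replicate 2 libraries than in both replicate 1 libraries. The intermediate chains, which hold the heavy chains together, ran at lower levels. *Dnaic2* was at 204 ± 48.0 CPM in the ependymal class, 69.4-fold above the rest, and *Dnaic1* at 140 ± 22.4 CPM, 51.4-fold above. *Dnah17*, a heavy chain known from sperm, was the outer arm gene that was not higher in ependymal cells. It was at 1.51, 0, 1.34 and 0 CPM there. Its highest class by mean was excitatory neurons, at 8.32, 2.71, 11.2 and 0.884 CPM (5.78 ± 4.80). In both replicate 2 libraries inhibitory neurons were higher than these, at 3.12 and 2.37 CPM. The mean was below the 10 CPM at which a level in another class was to be named, so *Dnah17* is named here after its values were seen.

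All 10 inner arm heavy chains were at least 4-fold above the rest in every library, and the group had the largest median log2 ratio of any role, 8.23. *Dnah12* (chr14:26693274-26891703) was at 1110, 592, 1009 and 497 CPM in the ependymal class (802 ± 303) and at 0.760 CPM in the rest, a ratio of 1170. *Dnah6* followed at 624, 726, 608 and 452 CPM (602 ± 113), and *Dnah3* at 326, 324, 286 and 239 CPM (294 ± 40.7). In the *Veph1* cluster *Dnah3* was at or near 0, with 1.2, 0, 1.34 and 0 CPM. *Dnah10*, part of the double-headed inner arm, was even across libraries at 246 ± 12.4 CPM and likewise near the floor in the *Veph1* cluster, at 1.13 CPM. *Dnah6*, in contrast, was at 33.9 CPM in the *Veph1* cluster and 0.890 CPM in the rest. *Dnah7b* was at 273, 160, 293 and 136 CPM in the ependymal class, but *Dnah7a*, *Dnah7b* and *Dnah7c* are near-identical copies, and the division of reads among them is uncertain.

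Of the radial spoke genes, *Rsph1* (chr17:31255019-31277383), a protein of the spoke head, had the highest level of all 82 genes. It was at 1521, 1399, 1426 and 1374 CPM in the ependymal class (1430 ± 64.4) and at 2.42 CPM in the rest. Its values in the *Veph1* cluster, 29.3, 105, 45.4 and 82.0 CPM, were far above the rest and far below the ependymal class in all libraries. *Rsph9*, a second spoke head protein, was at 414 ± 41.8 CPM in the ependymal class, but at 22.4 CPM in the rest, so its ratio was only 18.6. *Rsph4a*, a further head protein, was at 236, 525, 231 and 388 CPM, with both replicate 2 libraries above both replicate 1 libraries. *Rsph10b* was steady at 164 ± 5.50 CPM, with the limit that it shares exonic sequence with *Pms2*. *Rsph3a* and *Rsph3b* are near-copies of each other and were at 24.1 ± 15.3 and 26.8 ± 14.7 CPM. *Rsph6a*, known from sperm, had 0 to 0.966 CPM.

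The 3 genes named Drc were all sharply ependymal. *Drc3* (chr11:60353329-60394341) was at 606, 438, 558 and 506 CPM in the ependymal class (527 ± 72.1) and 2.34 CPM in the rest. *Drc1*, the scaffold of the regulatory complex, was at 179, 250, 193 and 216 CPM (210 ± 30.9), 137-fold above the rest. *Drc7* was at 115, 146, 119 and 141 CPM (130 ± 15.3), 523-fold above.

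Among the tektins, *Tekt1* (chr11:72344722-72362442) and *Tekt4* led. *Tekt1* was at 356, 388, 305 and 408 CPM in the ependymal class (364 ± 44.7), 209-fold above the rest. *Tekt4* was at 275, 292, 250 and 341 CPM (290 ± 38.7), 274-fold above. *Tekt3* was at 36.7 ± 4.23 CPM and *Tekt2* at 28.5 ± 9.92 CPM. *Tekt5*, known from sperm, did not follow them. It was at 6.03, 10.2, 4.59 and 9.66 CPM in the ependymal class and at 9.19 ± 2.60 CPM in the *Veph1* cluster, and these ranges overlapped.

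The Cfap genes ranged from sharply ependymal to broadly detected. *Cfap299* (chr5:98329304-98802047) had the highest mean, 918 CPM, but was at 1550 and 1382 CPM in the replicate 1 libraries and 365 and 376 CPM in the replicate 2 libraries. *Cfap54*, a protein of the central apparatus, was at 935, 970, 875 and 615 CPM (849 ± 161), 221-fold above the rest. *Cfap44*, part of the tether of an inner arm, was at 652, 609, 561 and 516 CPM (585 ± 58.9), 421-fold above. *Cfap43*, its partner in the tether, was at 346 ± 71.1 CPM, with the limit that it shares exonic sequence with *Itprip*. *Cfap126*, also called Flattop, was at 577 ± 82.8 CPM and 313-fold above the rest. *Cfap36* (chr11:29221532-29247409), in contrast, was at 615 ± 56.3 CPM in the ependymal class and at 93.9 CPM in the rest, a ratio of 6.57. *Cfap20* was at 364 ± 20.6 CPM against 86.4 CPM, and *Cfap298* at 419 ± 40.4 CPM against 32.4 CPM. *Cfap36*, *Cfap20*, *Cfap298*, *Cfap97*, *Cfap100* and *Cfap410* were the Cfap genes at 10 CPM or more in the rest. *Cfap100* was at 36.4 ± 7.11 CPM in astrocytes, against 144 ± 19.0 CPM in the ependymal class.

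Of the 15 intraflagellar transport genes, 14 were highest in the ependymal class in all 4 libraries. The exception was the antisense RNA *Ift88os*, at 0 to 1.53 CPM in the ependymal class and with 0 UMIs in several other classes. Summed, they took 0.330% ± 0.00578 of ependymal UMIs, 0.0921% ± 0.0110 of those of the *Veph1* cluster and 0.0722% ± 0.00395 of those of pericyte or mural cells, and their lowest class was microglia and macrophages at 0.0232%. *Ift20* (chr11:78536361-78541737), a subunit of the B complex that also works at the Golgi, was at 567, 592, 512 and 617 CPM in the ependymal class (572 ± 45.1) and 73.6 CPM in the rest. *Ift43*, of the A complex, was at 475, 312, 490 and 370 CPM (412 ± 85.2), and pericyte or mural cells came next with 208, 192, 239 and 189 CPM (207 ± 22.5). *Ift20* was also at 183 ± 11.5 CPM in pericyte or mural cells. *Ift74* and *Ift81*, which bind tubulin as a pair in the B complex, were at 406 ± 46.4 and 288 ± 21.7 CPM in the ependymal class. *Ift22* was at 311 ± 52.8 CPM there. *Ift57*, *Ift27* and *Ift52* were below 4-fold above the rest in at least 1 library, with mean ratios of 4.17, 4.12 and 3.99. Transport genes made up 14.4% of the UMIs of the 82 genes in the *Sntn* cluster, 20.6% in the *Deup1* cluster, 36.3% in the *Veph1* cluster and 54.4% in the rest.

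Other genes of the same machinery, on lists taken from their known roles, mostly followed the members. Over all genes, 7.04% were at least 4-fold above the rest in every library. All 9 genes of docking, rulers and light chains, all 6 of the central apparatus and all 5 further subunits of the regulatory complex were at least 4-fold above the rest in every library, as were 7 of 9 arm assembly factors. *Dynlrb2*, a light chain, was at 1326 ± 92.0 CPM in the ependymal class, *Ccdc39*, a ruler of arm spacing, at 615 ± 144 CPM, and *Hydin*, of the central apparatus, at 566 ± 77.8 CPM. Of transport subunits and motors under other symbols, 12 of 17 passed, and of genes of the BBSome and primary cilium, 7 of 10. *Dync2h1*, the motor of return transport, was at 405 ± 28.4 CPM. Of the regulators of ciliogenesis, 7 of 10 passed, with *Rfx3*, *E2f4* and *E2f5* the exceptions. *Rfx3* was near the limit, with a log2 ratio to the rest of 2.01 ± 0.08. *E2f4* and *E2f5* were at 0.12 ± 0.16 and -0.26 ± 0.18. *Foxj1* was at 778 ± 141 CPM in the ependymal class and 5.15 CPM in the rest. *Foxj1* and *Dynlrb2* were also among the markers from which the class was named, so their high level there was fixed by the naming.

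The 2 ependymal clusters had nearly the same summed level, 2.12% ± 0.213 in the *Sntn* cluster and 2.05% ± 0.165 in the *Deup1* cluster, but they weighted the genes differently. In every library, 18 of the 82 genes were at least 1.5-fold higher in the *Sntn* cluster, against 5.02% of all genes. A further 6 were at least 1.5-fold lower there (5.42% of all genes). Among genes with a value in every library, 23.4% of 77 members were higher, against 11.2% of 12067 genes, and 7.79% of members were lower, against 12.1%. The median log2 ratio of *Sntn* to *Deup1* cluster was 0.37 for the structural genes, -0.20 for the transport genes and 0.02 for all genes. Arms, spokes and the regulatory complex all had members on the *Sntn* side. *Dnah5* was at 503, 401, 464 and 314 CPM in the *Sntn* cluster and 213, 200, 198 and 133 CPM in the *Deup1* cluster. *Rsph4a* was at 283, 625, 275 and 447 CPM against 99.2, 208, 102 and 159 CPM, and *Drc7* at 139, 174, 144 and 160 CPM against 47.4, 57.6, 45.6 and 65.6 CPM. For these 3 genes the *Sntn* cluster was higher in every library. *Cfap77* and *Ift88*, named after their values were seen, had log2 ratios of 1.64 ± 0.27 and 1.15 ± 0.31.

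The genes higher in the *Deup1* cluster were *Dnah8*, *Cfap36*, *Ift20*, *Ift22*, *Tekt4* and *Cfap298*. *Dnah8* (chr17:30624354-30877365), an outer arm heavy chain best known from sperm and named here after its values were seen, was at 101, 122, 106 and 46.9 CPM in the *Deup1* cluster and 5.81, 8.21, 7.41 and 16.2 CPM in the *Sntn* cluster, with no overlap. Its log2 ratio of *Sntn* to *Deup1* cluster was -3.35 ± 1.22, the lowest of all 77 members with a value. *Ift20* was at 1117, 1110, 897 and 1210 CPM in the *Deup1* cluster and 379, 429, 382 and 463 CPM in the *Sntn* cluster, and *Ift22* at 466, 585, 512 and 739 CPM against 196, 233, 202 and 291 CPM. *Cfap36* was at 1122, 1317, 1054 and 1185 CPM against 396, 499, 409 and 463 CPM, and *Tekt4* at 434, 477, 384 and 586 CPM against 220, 234, 205 and 278 CPM. *Rsph1*, the leading gene of both clusters among the members, was also higher in the *Deup1* cluster in every library, at 1842 against 1301 CPM on average, but by less than 1.5-fold in 3 of the 4. *Deup1*, *Cdc20b*, *Cep152* and *Plk4*, which serve centriole amplification, and the regulators *Mcidas*, *Ccno* and *Myb* were at least 1.5-fold higher in the *Deup1* cluster. Over all genes the share was 5.42%. The cluster was set apart by its level of *Deup1*, and *Cdc20b*, *Mcidas* and *Ccno* were picked as its leading genes. The higher level of *Deup1*, *Cdc20b*, *Mcidas* and *Ccno* there was thus fixed by the choice. *Cep152*, *Plk4* and *Myb* were not used in it. Their log2 ratios of *Sntn* to *Deup1* cluster were -3.65 ± 0.50, -4.45 ± 0.53 and -2.00 ± 0.23. *Foxj1* was at 855, 1035, 978 and 1379 CPM in the *Deup1* cluster and 610, 671, 605 and 880 CPM in the *Sntn* cluster.

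Other measures moved with these 2 clusters, and their part in the differences was not tested. The 6 dividing markers were detected in a mean of 70.2% of cells of the *Deup1* cluster and 12.2% of the *Sntn* cluster, at median depths of 22313 and 17123 UMIs. Summed over all 9 stem-like markers, the *Deup1* cluster was at 464 to 774 CPM and the *Sntn* cluster at 201 to 218 CPM, and over all 8 astrocyte markers at 175 to 281 against 696 to 1095 CPM. The 6 choroid plexus markers summed to 55.5 to 2224 CPM in the *Deup1* cluster and 159 to 268 CPM in the *Sntn* cluster. The count of 18 was 10 when cells with up to 20% mitochondrial counts were kept, which adds cells and redraws the clusters, and 29 when cilium genes were kept in the clustering.

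**Figure D3:**
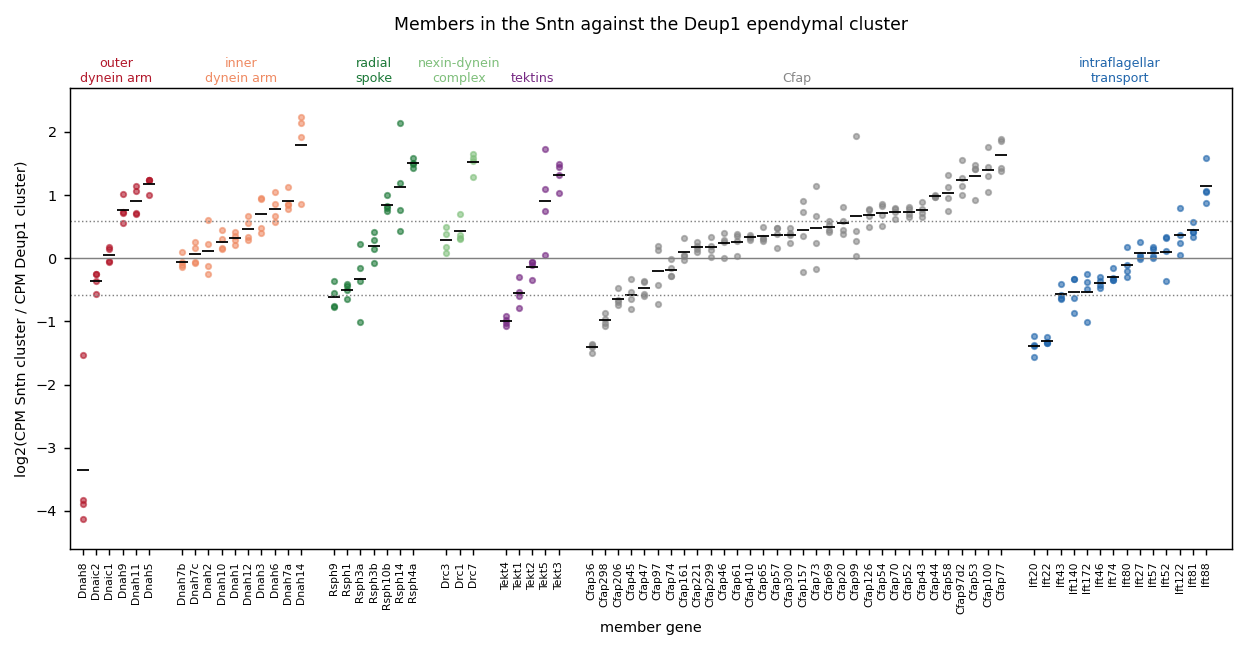
Log2 ratio of CPM in the *Sntn* cluster to CPM in the *Deup1* cluster for the 77 genes with a value in all libraries, grouped by role and ordered by the mean, with 1 point per library, black bars for means and dotted lines at 1.5-fold. *Dnah8* is lowest at a mean of -3.35, with 1 library (mutant replicate 2) well above the other 3, and *Dnah14* is highest at 1.79, with mutant replicate 2 a lower bound because its 2 UMIs in the *Deup1* cluster were raised to 3.

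Among the 13 classes with at least 20 cells in every library, the *Veph1* cluster came closest to the ependymal class. Choroid plexus-like cells, only 25 in all, were in a similar range at 0.238%, 0.284%, 0.269% and 0.210%. The *Veph1* cluster was the second-highest of the 13 classes for 66 of the 80 members whose highest mean was in the ependymal class. The same share over all genes was not counted. In the *Veph1* cluster, 49 of the 82 were at least 2-fold above the rest in every library (2.97% of all genes). Of these 49, 44 were structural and 5 were transport genes, and 47 were among the 70 genes at least 4-fold above the rest in the ependymal class, which is 95.9% of the first list and 67.1% of the second. With 49 and 70 of the 82 members on the lists, a large overlap follows from their sizes alone. The overlap over all genes was not counted. The levels stayed well under those of ependymal cells, with 52 genes at least 4-fold lower in every library (3.38% of all genes) and a median log2 ratio of ependymal class to *Veph1* cluster of 3.54. The highest levels in the *Veph1* cluster belonged to broadly detected genes. *Cfap36* was at 156, 277, 153 and 200 CPM, and the means were 130 CPM for *Cfap20*, 129 CPM for *Ift74*, 111 CPM for *Cfap298* and 107 CPM for *Ift57*. In the *Egfr* cluster, the 82 genes summed to 0.0916% ± 0.00260 of UMIs, within the range of the classes without motile cilia.

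Counted per cell, more structural axoneme genes were detected in ependymal cells than in cells of the *Veph1* cluster. Each cell was thinned to 2000 UMIs, and the 67 genes outside intraflagellar transport were counted where they had a UMI. The median was 23 genes in the *Sntn* cluster (5th to 95th percentile 14 to 31) and 20 in the *Deup1* cluster (12 to 28). It was 2 in the *Veph1* cluster, 1 in astrocytes and 0 in microglia and macrophages. At least 5 genes were found in 886 of 886 ependymal cells, in 12.4%, 33.1%, 16.1% and 19.7% of the cells of the *Veph1* cluster (18.1% in all, exact 95% interval 15.8 to 20.7%), in 0.220% of astrocytes and in 0.276% of microglia and macrophages. Median depths were 11100.5 UMIs in the *Veph1* cluster, 14254 in astrocytes and 10716.5 in microglia and macrophages. Without thinning, 75.6% of the cells of the *Veph1* cluster had at least 5. The interval covers counting error over the pooled cells only, not the spread between libraries. In the *Veph1* cluster 154 cells had 4 to 6 genes, so the limit of 5 did not fall in a gap. Counts of thinned cells cannot tell a single range from a mixture of types, and this was not tested.

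**Figure D4:**
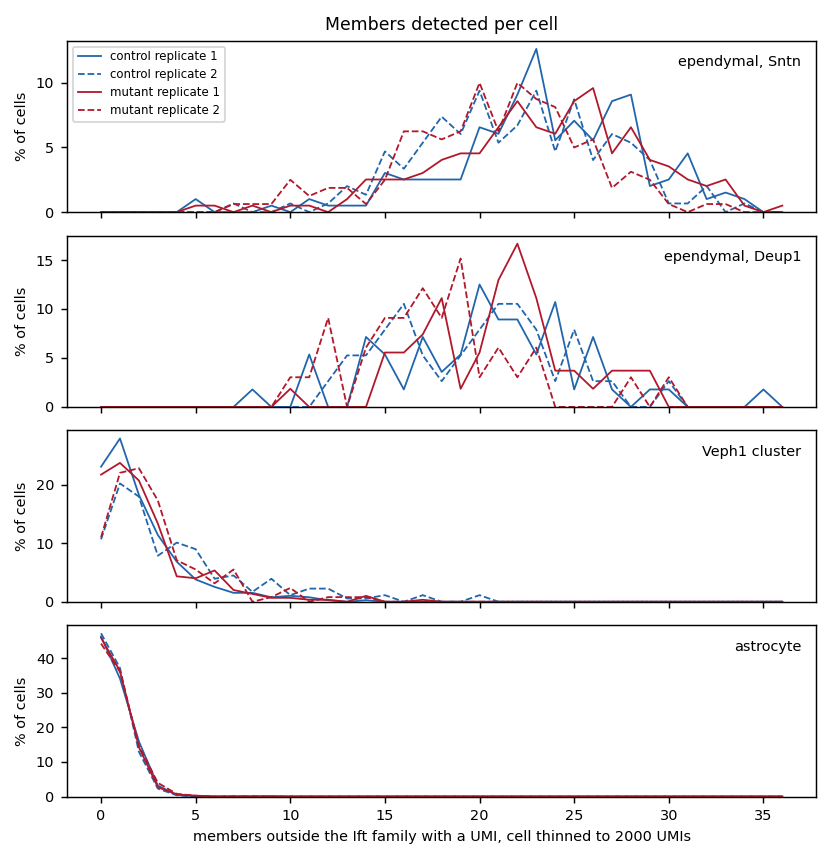
Share of cells (percent) by the number of the 67 structural genes with a UMI after each cell was thinned to 2000 UMIs, with 1 line per library and 1 panel each for the *Sntn*, *Deup1* and *Veph1* clusters and astrocytes. The ependymal clusters centre on 20 to 23 genes, astrocytes on 1, and the *Veph1* cluster has a median of 2 with a tail up to 20.

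With the number of structural genes detected per cell of the *Veph1* cluster, genes that are not members moved too. *Foxj1* was at 14.9, 17.8, 18.7 and 34.1 CPM in cells with 0 or 1 of the structural genes, at 44.3 to 55.4 CPM in those with 2 to 4, and at 198, 400, 288 and 378 CPM in those with 5 or more. *Deup1* was at 1.18 to 4.84 CPM in the first of these bands and 58.1 to 266 CPM in the last. The ependymal marker *Rarres2* was at 20.8, 38.7, 19.3 and 35.9 CPM in the first and 159, 315, 125 and 202 CPM in the last. The ependymal marker *Mia* did not rise in every library, at 47.1, 45.2, 22.9 and 140 CPM in the first and 73.8, 324, 112 and 125 CPM in the last. The gene *Veph1* was lower in the last band in every library, at 187, 16.5, 162 and 48.1 CPM against 253, 95.3, 250 and 91.6 CPM in the first. *Hgf*, *Egfr* and *Aqp4* were also lower in the last band in every library, with *Hgf* at 102, 16.5, 104 and 28.8 CPM against 129, 102, 120 and 53.9 CPM. *Lhcgr* and *Sfrp1* did not share this direction in every library. *Lhcgr* was at 104, 26.4, 128 and 0 CPM in the last band and 47.9, 22.6, 58.4 and 14.4 CPM in the first, and the stem-like marker *Sfrp1* at 479, 340, 474 and 157 CPM against 463, 739, 370 and 415 CPM. *Sfrp1* was thus higher in the last band in both replicate 1 libraries and lower in both replicate 2 libraries. The genes given here are single markers and leading genes, and the other markers on the lists are not given by band. Of the 181 cells with 5 or more genes, 0 were marked as doublets by Scrublet, against 53 of the 817 with fewer, and the median depths were 11312 and 11051 UMIs. Of the marked cells, 26 and 25 came from control and mutant replicate 1, and 2 and 0 from replicate 2. The caller was not shown to work in replicate 2, which held 59 (control) and 25 (mutant) of the 181 cells.

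No member was called between genotypes by the test used. In the ependymal class, 77 of the 82 genes passed the filter on low counts, and edgeR's quasi-likelihood test on counts summed per library called 0 of them, with 0.0% of 13957 genes called at an adjusted p under 0.05. None of the 77 had an unadjusted p under 0.05 in edgeR or in DESeq2. Over the 15 classes and clusters tested, 653 tests of members gave 0 calls and 0 unadjusted p under 0.05 in both tools, with 0.0% of tests of all genes called by edgeR and 0.000558% by DESeq2. Both fits hold genotype only, so the difference between replicate numbers stays in their residual spread and can hide differences between genotypes. An edgeR fit with the replicate number as a block gave 17 unadjusted p under 0.05 among the 653 tests, and 0 calls. With 2 libraries against 2, an exact permutation test could not go below p = 0.333, and differences within the spread between libraries were not detectable. The median log2 ratio of mutant to control in the ependymal class was -0.08 over the 77 members and 0.00 over all genes, and 56 of the 77 were negative, against 49.8% of all genes. Members are not independent of one another, so this count is a description and was not tested.

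Within each replicate number, the mutant library was slightly lower in ependymal cells. The log2 ratio of the summed level was -0.08 in replicate 1 and -0.11 in replicate 2, and it was -0.09 and -0.12 in the *Sntn* cluster and -0.08 and -0.08 in the *Deup1* cluster. The genotypes overlapped all the same, since control replicate 2 (2.02%) was below mutant replicate 1 (2.20%). In all, 37 of 77 members were lower in the mutant within both replicates, against 22.4% of all genes, and 9 were higher (11.7% of members, against 25.4% of all genes). These counts, too, are of genes that are not independent. Of the 12 classes and clusters outside the ependymal class, the summed level was lower in the mutant within both replicates in 7, higher in 2 and of opposite signs in 3, so the direction was not particular to ependymal cells. Leaving out 1 library took the ependymal difference from -0.22 to 0.02, and it had the opposite sign without control replicate 1 and without mutant replicate 2 (0.01 and 0.02). With 1 library left out, the genotypes hold unequal numbers of each replicate, and the replicate 2 libraries were below the replicate 1 libraries in both genotypes, so that difference enters these values. *Cfap54* was at 935 against 875 CPM in replicate 1 and 970 against 615 CPM in replicate 2. In the *Veph1* cluster the log2 ratio was 0.15 in replicate 1 and -0.38 in replicate 2, so the direction was not shared.

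With the replicate number as a block, edgeR again called 0 members over the 15 groups, against 0.0697% of tests of all genes. Unadjusted p were under 0.05 for 8 of 77 members in the *Sntn* cluster (3.68% of all genes there) and 4 of 77 in the ependymal class (3.28%), all lower in the mutant. The smallest of these in the *Sntn* cluster were those of *Cfap47* (log2 ratio -0.47 ± 0.15 SE) and *Cfap54* (-0.44 ± 0.15 SE), named after their values were seen, each with an adjusted p of 1 in edgeR. The 4 genes of the ependymal class, *Cfap47*, *Cfap54*, *Dnah3* and *Dnah6*, were all among the 8 of the *Sntn* cluster. That cluster holds 705 of the 886 ependymal cells, so these counts are not separate results. The smallest adjusted p of a member in any class was 0.511 in edgeR, for *Ift46* in excitatory neurons (0.56 ± 0.20 SE). *Chd8* itself was at 51.3, 85.8, 56.1 and 96.9 CPM in the ependymal class, with a log2 ratio of 0.13 ± 0.42 SE.

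Differences between the replicate numbers were large for some members. In the ependymal class, 13 of the 82 genes were at least 1.5-fold lower in replicate 2 than in replicate 1 in both genotypes (6.71% of all genes), and 4 were at least 1.5-fold higher (3.68%). Among genes with a value in every library, 13 of 77 members (16.9%) were lower, against 1802 of 13830 genes, and 5.19% of members were higher, against 7.14% of genes. The lowest ratios of replicate 2 to 1 were those of *Cfap61*, at log2 -2.05 on average, *Cfap299* at -1.98 and *Dnah7c* at -1.90, and the highest was that of *Rsph4a* at 0.95. *Cfap61*, for instance, was at 488 and 484 CPM in the replicate 1 libraries and 133 and 104 CPM in the replicate 2 libraries. The shift went with the length of the introns. The median log2 ratio of replicate 2 to 1 was 0.27 in the 25 members with the least intronic sequence, -0.10 in the 27 in the middle and -0.51 in the 25 with the most (median 190799 intronic bases). All genes split at the same lengths gave 0.17, -0.10 and -0.67. The matrices of replicate 1 carry Cell Ranger 7.0.0 in their headers and those of replicate 2 carry 5.0.1, so software version and replicate cannot be told apart. Both genotypes have 1 library of each version.

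**Figure D5:**
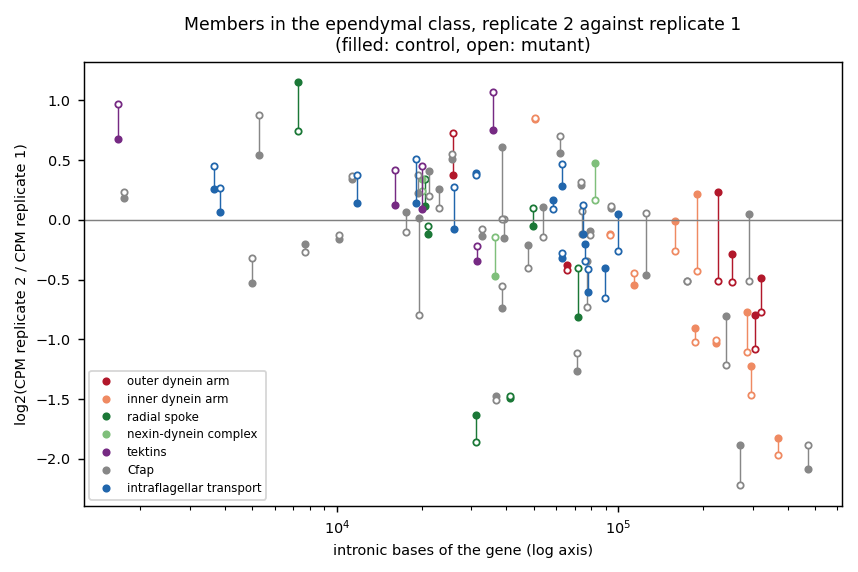
Log2 ratio of replicate 2 to replicate 1 in the ependymal class against the intronic bases of each gene (log axis), with filled points for controls, open points for mutants and colours for roles. *Cfap61* and *Cfap299*, with 269650 and 471296 intronic bases, have mean ratios of -2.05 and -1.98, and the genes with the least intronic sequence have a median of 0.27.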

How the data were processed

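RNA of sorted single cells was counted with the Chromium 3′ v3.1 kit in 4 libraries. The authors aligned reads to mm10 with Cell Ranger and deposited the UMI counts of each gene in each barcode as whole numbers, not normalized. The matrix headers name Cell Ranger 7.0.0 for both replicate 1 libraries and 5.0.1 for both replicate 2 libraries, and the submitters' processing notes name 3.0. Groups came from the labels. Positions and intron lengths came from the reference annotation of the same build, which held 99.8% of the genes.

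A cell was kept if it had between 2000 and 40000 UMIs, 1000 or more genes and no more than 10% of its UMIs from mitochondrial genes. For clustering, 2000 variable genes were used, without the 82 genes and the other cilium genes on the lists. Their log-normalized counts were standardized library by library. Leiden clusters were made on 30 principal components, 15 neighbours and resolution 1 with scanpy 1.11.5 and igraph 0.11.9. Clusters were named from fixed marker lists. Counts were summed per class and library, and levels are CPM of that sum. Ratios were taken within each library and averaged on the log2 scale, with no pseudocount. A count under 3 UMIs was raised to 3, the ratio was kept only where it was then a bound in its own direction, and a gene had no value where both counts of a library were at or under 3. Genotypes were compared with edgeR 4.0.16 (quasi-likelihood test, TMM, filterByExpr, Benjamini-Hochberg over all genes of a class) in classes with at least 20 cells in every library, because cells are not replicates. DESeq2 1.42.0 was an alternative. Scripts were tested on simulated data.

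The members and gene lists were chosen with earlier results of these data known. Genes were named by rule: up to 5 per role by level in the ependymal class, up to 5 by level in the *Veph1* cluster, members called between genotypes, members highest in another class at 10 CPM or more, and up to 3 of each other list with *Foxj1* and *Chd8*. Other names were added after their values were seen. Alternatives were mitochondrial limits of 5% and 20%, clustering with cilium genes kept, resolution 2, removal of doublets marked by Scrublet, pooling of cells, no thinning, no filter, a replicate block, DESeq2 and leaving out each library. The use of only 1 replicate number was added after the data were seen.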

Additional observations from a re-analysis of the deposited data

Results flagged for a closer look

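In 2 classes the summed level of the members was higher in the mutant within both replicates, the opposite sign to the ependymal class, where it was lower in both, as it was in 7 of the 12 classes and clusters outside it. In the dividing astrocyte class the log2 ratio of mutant to control was 0.0111 in replicate 1 and 0.0128 in replicate 2, and in pericyte or mural cells it was 0.140 and 0.0499. The differences from the ependymal class were not tested.

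Choroid plexus-like cells, too few for any comparison (25 cells, 3 to 9 per library), held the members at 0.250% of UMIs on average, with 0.238%, 0.284%, 0.269% and 0.210% in the 4 libraries. This is close to the *Veph1* cluster and above the 0.0414% of microglia and macrophages. *Cfap126* was at 231 CPM and *Rsph9* at 159 CPM in these cells, and *Cfap298* at 155 CPM.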

How the results depend on the processing

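Of 197 values recomputed under the alternatives, 186 kept their direction and size, 11 moved and 0 changed sign beyond the spread. The counts of genes higher in the ependymal class than in the rest stayed within 1.5 times their value in every alternative run. The number of members higher in the *Sntn* than in the *Deup1* cluster, 18, was 10 with a mitochondrial limit of 20% and 29 with cilium genes kept in the clustering, and the number lower there, 6, was 10 when cells were pooled over libraries and 10 in the replicate 2 libraries alone. The summed level in the *Deup1* cluster, 2.05%, was 1.75% with cilium genes kept and 1.88% at resolution 2. Without thinning, the median number of structural genes per cell was 51 in the *Sntn* cluster, 51 in the *Deup1* cluster, 7 in the *Veph1* cluster and 4 in astrocytes. The causes were not tested, except that unthinned cells have more UMIs.

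Leaving out 1 library at a time, the log2 difference between genotypes in the summed level ranged from -0.22 to 0.02 in the ependymal class, -0.23 to 0.02 in the *Sntn* cluster, -0.17 to 0.02 in the *Deup1* cluster and -0.47 to 0.25 in the *Veph1* cluster, the last without control replicate 2. With the replicate number as a block, edgeR called 0 members, as without it, while calls over all genes and the 15 groups went from 0 to 125. The labels do not say what a replicate number shares, and there are only 2 pairs. Deviations from the genotype means correlated between same-numbered libraries with r of 0.609 to 0.893 over the groups (across genes, which are not independent). Without a filter on low counts, 5 member tests had an unadjusted p under 0.05 and 0 were called in edgeR.

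Removal of marked doublets left the ependymal cells in a single cluster, so that setting gives no values for the *Sntn* and *Deup1* clusters. Settings with a mitochondrial limit of 5%, resolution 2 and doublets removed gave no *Egfr* cluster. Depth limits genes with few UMIs, such as *Rsph6a* and *Cfap97d1*, and 2 libraries per genotype limit every comparison of genotypes.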

Other observations

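Beyond the members, *Mcidas* and *Deup1* varied within the ependymal class and within the *Veph1* cluster. *Mcidas*, a starter of multiciliogenesis, was at 44.3, 45.3, 61.8 and 32.5 CPM over the ependymal class and at only 1.75 ± 1.06 CPM in the *Sntn* cluster. In the *Veph1* cluster it had 0 CPM in all 4 libraries in cells with 0 or 1 structural genes and 22.0, 41.3, 44.8 and 25.6 CPM in cells with 5 or more. *Deup1* itself, which builds the deuterosome on which centrioles multiply, was at 86.7 ± 9.47 CPM in the *Sntn* cluster.

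*Spag16*, of the central apparatus, showed the same split between replicates as *Cfap299*, at 1329 and 1310 CPM in the replicate 1 libraries of the ependymal class and 209 and 136 CPM in replicate 2. Barcodes removed for mitochondrial counts alone held the members at 0.124% and 0.109% of UMIs in the replicate 1 libraries (control, mutant) and 0.187% and 0.200% in the replicate 2 libraries, against 0.226% to 0.258% in the cells kept.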
